A study of Mus musculus with 18 samples.

Results

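The main effect of losing both copies of Irx3 was measured in the ventricles of mouse hearts at stage E14.5, by sequencing of polyA RNA. The Irx3 null group held 6 libraries, Irx3KO 1, 2 and 4 and Irx3KO_Irx4KO 2, 3 and 4. The Irx3-bearing group held 6 libraries, Irx4KO 2, 3 and 4, which keep both copies of Irx3, and Irx3het_Irx4het 2, 3 and 4, which keep 1 copy of Irx3 and 1 of Irx4. These are 12 of the 18 libraries of the series, and each was placed in its group by its genotype label. The other 6, Irx3KO_Irx4KO 5, 7 and 10 and wild type (WT) 1, 2 and 3, were left out of the fit because their technical profile was judged to differ. All WT libraries are among these 6, so for WT a technical difference cannot be told apart from genotype. The common dispersion of the 6 was 0.0270, against 0.0157 in the 12, and its cause was not tested. The 6 served as a second set of libraries in which the same genes could be read. Every one of the 12 libraries carries at least 1 mutant allele of Irx3 or Irx4, so the comparison has no wild type. Homozygous Irx4 mutants make up 3 of the 6 libraries on each side, and Irx4 state entered the model as a term. Among the libraries without homozygous Irx4 mutation, Irx3KO also has 1 more intact copy of Irx4 than Irx3het_Irx4het, so an effect of that copy cannot be told apart from Irx3 there. The labels give no strain, no design of the mutant alleles and no embryo of origin, so p-values measure the spread between libraries, which may be technical. In the pooled fit that spread also holds genotype differences without a term, namely 1 against both copies of Irx3, and the Irx4 copy.

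Irx3 is an Iroquois homeobox transcription factor. It lies in a cluster with Irx5 and Irx6 on mouse chromosome 8, while Irx1, Irx2 and Irx4 form a second cluster on chromosome 13. In the mouse heart Irx3 is known from the trabecular layer and the ventricular conduction system, where it promotes fast conduction of the impulse, and Irx4 is known as a gene of the ventricular chamber. Their overlapping role in the compaction of the ventricular wall is the subject of the study.

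The 12 libraries held between 26721576 (Irx3het_Irx4het 4) and 42877770 (Irx3KO 1) estimated counts. Levels are given below as normalised CPM, so that libraries of unequal depth can be compared. Y-linked genes summed to 1.1 CPM in Irx3KO_Irx4KO 4 and 1.42 CPM in Irx3het_Irx4het 2, while the other 10 libraries had from 97.0 to 172 CPM, so each group had 1 library with low Y-linked signal. The labelled tissue was checked by summed marker levels. The 8 ventricular myocyte markers summed to between 26390 and 30400 CPM in Irx3 null libraries and to between 27240 and 31890 CPM in Irx3-bearing libraries. The 4 lung and liver markers summed to between 0.136 and 1.39 CPM in Irx3 null and to between 0.326 and 1.52 CPM in Irx3-bearing libraries. A fall in a bulk sample can come from fewer cells that express a gene or from less RNA per cell, and these cannot be told apart here.

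Irx3 itself was lower in every null library than in every Irx3-bearing library. It was at 2.81, 3.13 and 2.58 CPM in Irx3KO and at 3.30, 3.82 and 3.84 CPM in Irx3KO_Irx4KO, against 22.2, 26.3 and 26.4 CPM in Irx4KO and 12.8, 13.2 and 13.4 CPM in Irx3het_Irx4het. The 3 levels did not overlap, and libraries with 1 intact copy sat between the nulls and those with both copies. Irx3 fell by 82.3% (log2 fold change -2.50, 95% interval -2.73 to -2.27, edgeR quasi-likelihood test, adjusted p = 2.01e-08). Of its transcripts, Irx3-201 held between 0 and 11.0 estimated counts in Irx3 null libraries, against 73.0 to 293 in Irx3-bearing libraries. Irx3-202 held between 102 and 142 estimated counts in Irx3 null libraries, against 260 to 750 in Irx3-bearing libraries. The remaining Irx3 reads of the null libraries were therefore assigned almost wholly to Irx3-202.

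Irx4 did not separate the groups. It was at 135, 142 and 158 CPM in Irx3KO and 236, 230 and 222 CPM in Irx3KO_Irx4KO, against 220, 216 and 239 CPM in Irx4KO and 191, 189 and 177 CPM in Irx3het_Irx4het. Irx3KO was thus the lowest of the 4 genotypes, and libraries labelled as homozygous for mutant Irx4 were not low in Irx4 RNA. Its log2 fold change was -0.16 ± 0.067 (SE, edgeR adjusted p = 0.38), and it turned to 0.10 when all 18 libraries were fitted. In the added libraries, normalised apart, Irx4 was at 283, 216 and 258 CPM in Irx3KO_Irx4KO 5, 7 and 10. In WT it was at 82.4, 78.6 and 126 CPM. The altered segment of Irx4 is not named in the labels, so its count does not check the Irx4 labels.

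**Figure D1:**
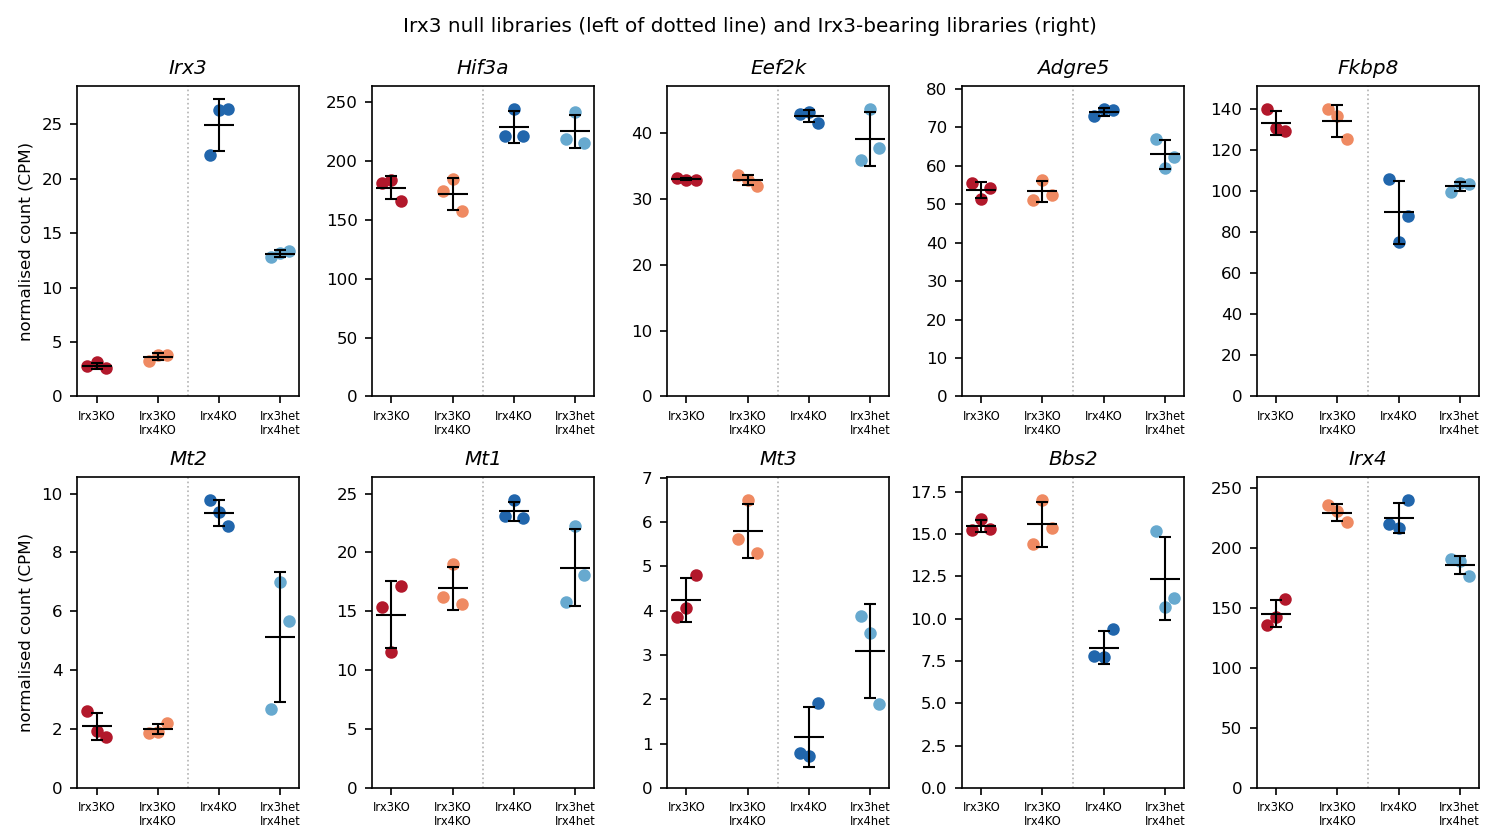
Normalised counts (CPM) of 10 genes in each of the 12 libraries, with Irx3 null genotypes left of the dotted line and Irx3-bearing genotypes right of it; points are libraries and black marks the mean and SD of 3. Irx3, Hif3a, Eef2k, Adgre5, Fkbp8 and Mt2 show no overlap across the line, while Mt1, Mt3, Bbs2 and Irx4 do.

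Beyond Irx3, few genes passed the test. Of 16286 genes tested, 7 were called at an adjusted p under 0.05 (0.043%), 2 of them higher (0.0123%) and 5 lower (0.0307%) in Irx3 null libraries. The 5 lower genes were Irx3, Hif3a, Adgre5, Mt2 and Eef2k, and the 2 higher genes were Fkbp8 and the gene model Gm45062. In all, 102 genes (0.626%) had no overlap between the 6 null and the 6 Irx3-bearing libraries, 43 higher and 59 lower, with a median absolute log2 fold change of 0.20. An unadjusted p under 0.05 was reached by 1896 genes (11.6%), 901 higher and 995 lower. The median log2 fold change of all genes was 0.001. The 7 calls became 185 by DESeq2 and 3 by limma-voom, and leaving out 1 library gave between 2 and 33, so the count depends on the tool and on single libraries, while the direction of the 6 named genes did not turn under any alternative. It was 2 without Irx3KO_Irx4KO 2, Irx3KO_Irx4KO 3 or Irx4KO 4, 3 without Irx3KO 2, Irx3KO_Irx4KO 4, Irx4KO 3 or Irx3het_Irx4het 3, 4 without Irx4KO 2, and 33 without Irx3het_Irx4het 4, the shallowest library.

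**Figure D2:**
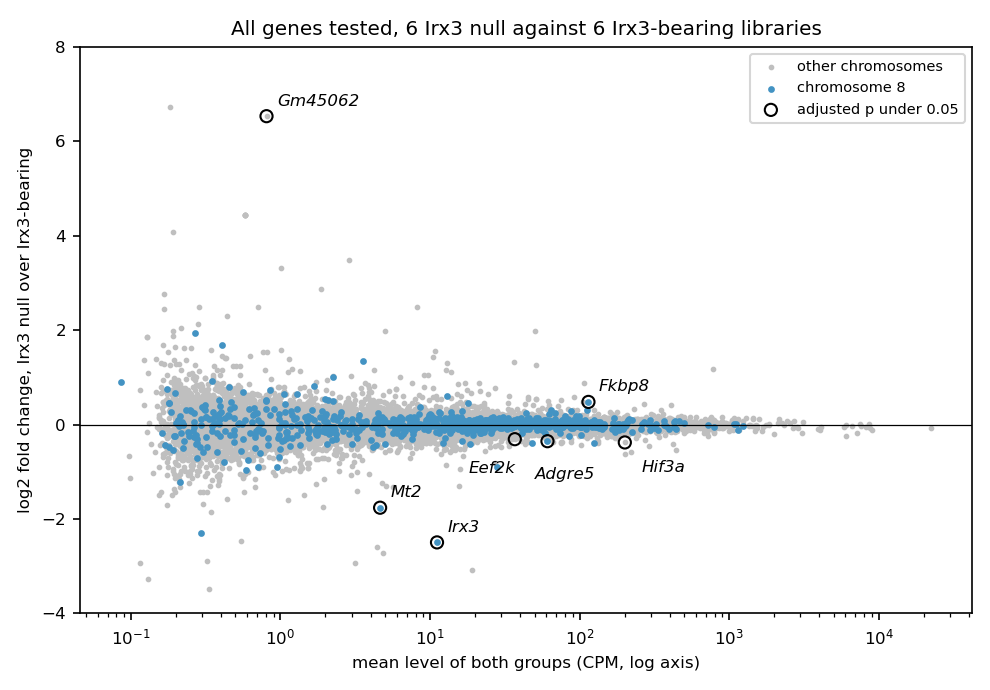
Log2 fold change of each gene (Irx3 null over Irx3-bearing, y axis) against its mean level (CPM, log x axis), with chromosome 8 genes in blue and the 7 called genes circled. The 16280 genes drawn lie within log2 fold changes of -4 to 8, and the other 6 fall outside these limits. Of the circled genes, Irx3, Mt2, Adgre5 and Fkbp8 are on chromosome 8.

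The most stable call outside the Irx3 locus was Hif3a, on chromosome 7. It encodes a member of the hypoxia-inducible factor alpha family, and splice forms of it restrain the response driven by the other members. Hif3a was at 182, 184 and 166 CPM in Irx3KO and 174, 184 and 158 CPM in Irx3KO_Irx4KO, against 221, 244 and 221 CPM in Irx4KO and 219, 242 and 215 CPM in Irx3het_Irx4het. All 6 null libraries were below all 6 Irx3-bearing libraries, and the genotypes within a group overlapped. Hif3a fell by 23.1% (log2 fold change -0.38 ± 0.047 SE, 95% interval -0.48 to -0.28, edgeR adjusted p = 0.0100). It was called without each of the 12 libraries in turn, at adjusted p up to 0.0385, and in 24 of 25 alternatives in all. The exception was counts rebuilt from TPM, with an adjusted p of 0.0634.

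Eef2k, also on chromosome 7, encodes the kinase that inhibits elongation factor 2 and so slows protein synthesis. Its level was nearly constant among the nulls, at 33.2, 32.9 and 33.0 CPM in Irx3KO and 33.7, 32.9 and 32.1 CPM in Irx3KO_Irx4KO. The Irx3-bearing libraries were higher and more spread, at 43.0, 43.3 and 41.6 CPM in Irx4KO and 35.9, 43.7 and 37.7 CPM in Irx3het_Irx4het. No library of one group reached the range of the other. Eef2k fell by 19.3% (log2 fold change -0.31 ± 0.048 SE, edgeR adjusted p = 0.0379). The call ended without any of Irx3KO 1, 2 or 4, Irx3KO_Irx4KO 2, 3 or 4, Irx4KO 2, 3 or 4, or Irx3het_Irx4het 3, at adjusted p between 0.0525 and 0.173, with log2 fold changes between -0.34 and -0.27 over all 12 such fits.

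The 250 bases upstream of the RefSeq starts of these genes (GRCm38.p6) were searched on both strands for ACANNTGT, the palindrome bound by Iroquois proteins, which 6.31% of 32851 promoter windows of that length contain. It was not found upstream of the listed starts of Hif3a, Eef2k, Fkbp8, Mt2 or Irx3, which says only that these letters are not in these windows. Of the other called genes, Adgre5 had no window available and Gm45062 was not searched. The Hif3a window is shown because Hif3a was the call least affected by single libraries. It is chr7:17062428-17062677 on the minus strand, without capitals as there was no match.

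Hif3a: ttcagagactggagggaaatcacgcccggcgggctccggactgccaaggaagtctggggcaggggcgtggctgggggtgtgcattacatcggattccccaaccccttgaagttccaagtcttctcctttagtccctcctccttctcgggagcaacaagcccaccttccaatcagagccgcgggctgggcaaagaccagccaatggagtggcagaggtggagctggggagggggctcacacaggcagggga

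Adgre5 and Fkbp8 lie on chromosome 8 at some distance from Irx3. Adgre5 encodes CD97, an adhesion G protein-coupled receptor found on leukocytes and on many other cells, and lies 8.06 Mb from Irx3 in GRCm38. It was at 55.6, 51.4 and 54.2 CPM in Irx3KO and 51.2, 56.3 and 52.5 CPM in Irx3KO_Irx4KO, against 72.9, 74.8 and 74.5 CPM in Irx4KO and 67, 59.5 and 62.4 CPM in Irx3het_Irx4het. The nulls were lowest, the libraries with 1 copy of Irx3 came between, and those with both copies were highest, with no overlap between these levels. Adgre5 fell by 21.6% (log2 fold change -0.35 ± 0.050 SE, edgeR adjusted p = 0.0270). The adjusted p lay between 0.0509 and 0.0917 without any of Irx3KO 2, Irx3KO_Irx4KO 2, 3 or 4, or Irx4KO 2, 3 or 4. The 9 macrophage markers summed to between 61.6 and 70.7 CPM in Irx3 null libraries and to between 59.6 and 74.8 CPM in Irx3-bearing libraries. None was called by edgeR, and 0 had a higher and 1 a lower value at an unadjusted p under 0.05, against 11.6% of all genes. Their part in the Adgre5 value was not tested.

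Fkbp8 encodes a prolyl isomerase of the outer mitochondrial membrane that anchors anti-apoptotic BCL2 and takes part in mitophagy, and lies 21.3 Mb from Irx3. It was at 140, 131 and 129 CPM in Irx3KO and 140, 137 and 125 CPM in Irx3KO_Irx4KO, against 106, 75.2 and 87.7 CPM in Irx4KO and 99.5, 104 and 103 CPM in Irx3het_Irx4het. All nulls were above all Irx3-bearing libraries. Fkbp8 rose by 39.5% (log2 fold change 0.48 ± 0.071 SE, edgeR adjusted p = 0.0379). The call ended without any of Irx3KO 1, 2 or 4, Irx3KO_Irx4KO 2, 3 or 4, Irx4KO 4, or Irx3het_Irx4het 2 or 3, at adjusted p between 0.0525 and 0.153.

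The last called gene, Gm45062, is a gene model on chromosome 6 with no descriptive symbol. It was at 0, 0 and 0.253 CPM in Irx3KO and 3.76, 4.23 and 1.35 CPM in Irx3KO_Irx4KO, against 0, 0.0839 and 0 CPM in Irx4KO and 0 in each Irx3het_Irx4het library. The groups overlapped, and only the Irx3KO_Irx4KO libraries stood out. It passed without 4 of the 12 libraries and failed without any of Irx3KO 4, Irx3KO_Irx4KO 2 or 3, Irx4KO 2, 3 or 4, or Irx3het_Irx4het 2 or 3, at adjusted p between 0.0687 and 0.375.

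Mt2 was the gene with the largest fall after Irx3 among those called, and it sits in a run of neighbours 2.27 to 2.38 Mb from Irx3 that did not move in 1 direction. Mt1 and Mt2 are the metallothioneins made in most tissues in response to metals and stress, and Mt3 is the form best known from brain. Bbs2, the gene next to them, encodes a subunit of the BBSome, a complex that carries proteins to the primary cilium. Metallothionein promoters respond to metals through metal response elements. Their upstream windows (250 bases, plus strand, RefSeq, GRCm38.p6) are shown because the 3 genes lie within a short stretch and differed in direction. Capitals mark the element's core, searched as TGCGCNC or TGCACNC on both strands with no overlap among the matches shown. The windows are chr8:94172368-94172617 for Mt2, chr8:94178839-94179088 for Mt1 and chr8:94152357-94152606 for Mt3.

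Mt2: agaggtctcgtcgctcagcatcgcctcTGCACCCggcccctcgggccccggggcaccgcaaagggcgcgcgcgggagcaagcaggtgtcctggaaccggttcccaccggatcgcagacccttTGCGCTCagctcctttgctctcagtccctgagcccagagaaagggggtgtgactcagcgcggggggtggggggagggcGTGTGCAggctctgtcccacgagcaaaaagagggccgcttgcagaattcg

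Mt1: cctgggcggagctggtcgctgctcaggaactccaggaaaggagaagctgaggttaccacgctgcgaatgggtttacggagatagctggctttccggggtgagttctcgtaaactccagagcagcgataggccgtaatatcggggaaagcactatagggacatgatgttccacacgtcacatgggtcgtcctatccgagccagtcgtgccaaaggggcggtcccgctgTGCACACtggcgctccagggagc

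Mt3: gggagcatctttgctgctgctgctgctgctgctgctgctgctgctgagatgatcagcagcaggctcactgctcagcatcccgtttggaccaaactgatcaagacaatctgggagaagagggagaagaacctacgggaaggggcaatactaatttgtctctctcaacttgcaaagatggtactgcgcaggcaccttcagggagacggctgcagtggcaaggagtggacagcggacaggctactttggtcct

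The core occurred 3 times upstream of Mt2, once upstream of Mt1 and 0 times upstream of Mt3, and 21.4% of all 32851 windows held at least 1. It also occurred 2 times upstream of Fkbp8 and 1 time upstream of Bbs2, which both had higher values in the nulls. For Hif3a and 1 of the listed starts of Eef2k, both lower in the nulls, it occurred 1 time. These counts describe the windows only, and their part in the direction of any gene was not tested. Mt2 was at 2.61, 1.93 and 1.72 CPM in Irx3KO and 1.88, 1.91 and 2.20 CPM in Irx3KO_Irx4KO, against 9.77, 9.37 and 8.91 CPM in Irx4KO and 2.69, 7.01 and 5.66 CPM in Irx3het_Irx4het. The groups did not overlap, though Irx3het_Irx4het 2 stood just above the highest null. Mt2 fell by 70.5% (log2 fold change -1.76 ± 0.24 SE, edgeR adjusted p = 0.0270). The adjusted p was 4.66e-05 without Irx3het_Irx4het 2, at a log2 fold change of -1.95. It lay between 0.0509 and 0.153 without any of Irx3KO 2 or 4, Irx3KO_Irx4KO 2, 3 or 4, Irx4KO 2, 3 or 4, or Irx3het_Irx4het 3.

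Mt3 and Bbs2 had values in the other direction and were not called by edgeR in the pooled comparison, while DESeq2 called both, and Mt1. Mt3 was at 3.85, 4.06 and 4.80 CPM in Irx3KO and 5.61, 6.49 and 5.30 CPM in Irx3KO_Irx4KO, against 0.780, 0.727 and 1.92 CPM in Irx4KO and 3.88, 3.50 and 1.89 CPM in Irx3het_Irx4het (log2 fold change 1.35 ± 0.38 SE, edgeR adjusted p = 0.244). Bbs2 was at 15.2, 15.9 and 15.3 CPM in Irx3KO and 14.4, 17.0 and 15.3 CPM in Irx3KO_Irx4KO, against 7.78, 7.72 and 9.40 CPM in Irx4KO and 15.2, 10.7 and 11.2 CPM in Irx3het_Irx4het (0.61 ± 0.12 SE, adjusted p = 0.120). For both genes Irx4KO was lowest, and Irx3het_Irx4het 2 lay among the nulls. Mt1 was at 15.4, 11.6 and 17.2 CPM in Irx3KO and 16.2, 19 and 15.7 CPM in Irx3KO_Irx4KO, against 23.1, 24.4 and 22.9 CPM in Irx4KO and 15.8, 22.2 and 18.1 CPM in Irx3het_Irx4het (-0.41 ± 0.10 SE, adjusted p = 0.198). Irx3het_Irx4het 2 was the Irx3-bearing library nearest to the null range for Mt2, and the only 1 inside it for Mt3 and Bbs2. For Mt1 both Irx3het_Irx4het 2 and Irx3het_Irx4het 4 lay inside it. The Irx3 level of Irx3het_Irx4het 2, 12.8 CPM, was like that of the other 2 libraries of its genotype. Metallothionein genes are paralogs, so the split of their reads carries some uncertainty.

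The share of genes called was highest near Irx3, but it counts Irx3 itself, whose mutation defines the groups. Within 5 Mb of Irx3, 2 of 73 tested genes were called (2.74%), Irx3 and Mt2, so Mt2 was the only called neighbour. In the same stretch 19 genes (26%), Irx3 included, had an unadjusted p under 0.05. From 5 to 25 Mb, 2 of 383 were called (0.522%) and 54 (14.1%) had an unadjusted p under 0.05. Beyond 25 Mb on chromosome 8, 0 of 408 were called by edgeR, and 35 (8.58%) had an unadjusted p under 0.05. DESeq2 called 20 genes on chromosome 8, which held 864 of the 16286 genes tested. Of these calls 8, with Irx3 among them, lay within 5 Mb of Irx3 and 4 beyond 25 Mb. By limma-voom 1 gene was called within 5 Mb, Irx3 itself, and 0 beyond 25 Mb. On the other chromosomes 3 of 15422 were called (0.0195%), and 1788 (11.6%) had an unadjusted p under 0.05. These shares describe the libraries and were not tested against each other, and the 25 Mb limit was set after the values were seen. Among the immediate neighbours, Fto, 0.13 Mb away, had a log2 fold change of -0.04 ± 0.026 SE, and Irx5, a second factor of the cluster, had -0.18 ± 0.079 SE (adjusted p = 0.394). Irx6, the third factor, was at 1.57 to 4.20 CPM (median 3.07) in Irx3 null libraries and at 1.16 to 2.15 CPM (median 1.42) in Irx3-bearing libraries, with overlap (1.02 ± 0.22 SE, adjusted p = 0.172). Genes near Irx3 on chromosome 8 tend to be inherited together with its mutant allele, so for these genes the loss of Irx3 and any other difference of that chromosome segment cannot be told apart.

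**Figure D3:**
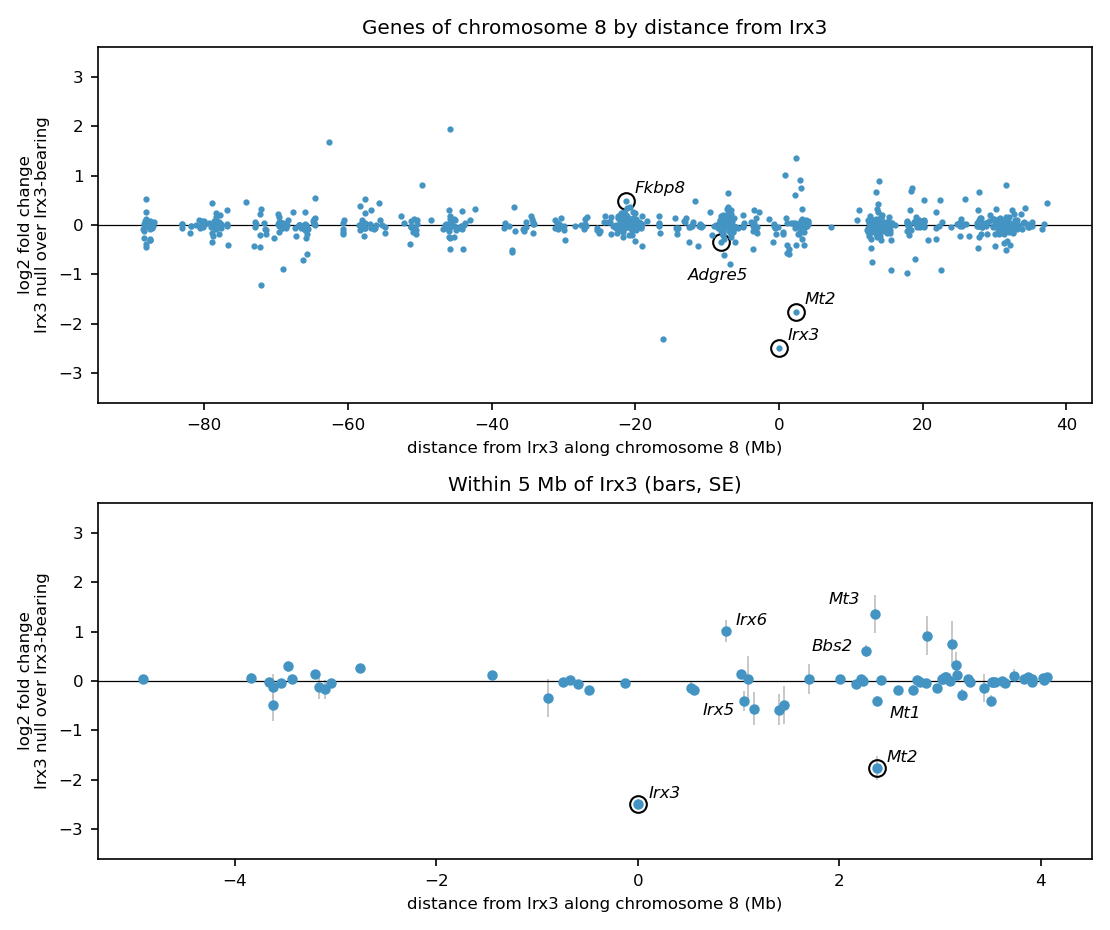
Log2 fold change (Irx3 null over Irx3-bearing, y axis) of chromosome 8 genes against their distance from Irx3 (Mb, x axis), for the whole chromosome (top) and within 5 Mb (bottom, bars are SE); circles mark calls. Mt2, 2.37 Mb from Irx3, is below the line, and its neighbours Mt3 and Bbs2 are above it.

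The same contrast was then read in each Irx4 state. The states also differ in the number of Irx3 copies lost and, without homozygous Irx4 mutation, in an Irx4 copy. Dependence on Irx4 state therefore cannot be told apart from these. With Irx4 homozygous mutant, Irx3KO_Irx4KO 2, 3 and 4 against Irx4KO gave 4 calls of 16286 genes (0.0246%), all on chromosome 8. Irx3 (-2.77 ± 0.11 SE, adjusted p = 2.83e-08), Adgre5 (-0.47 ± 0.055, adjusted p = 0.00802) and Mt2 (-2.23 ± 0.28, adjusted p = 0.0213) fell, and Bbs2 rose (0.91 ± 0.13, adjusted p = 0.0405). Adgre5 lost the call without Irx3KO_Irx4KO 4 or Irx4KO 3 (adjusted p between 0.0524 and 0.0836), and Mt2 without Irx3KO_Irx4KO 2 or 4 or Irx4KO 2 or 3 (0.0909 to 0.115). Bbs2 lost it without any of Irx3KO 1, 2 or 4, Irx3KO_Irx4KO 2 or 4, or Irx4KO 2 or 3 (0.0564 to 0.246). Hif3a, Eef2k and Fkbp8 each had an adjusted p of 0.0670 there, at -0.41 ± 0.068, -0.37 ± 0.065 and 0.58 ± 0.096.

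Without homozygous Irx4 mutation, Irx3KO against Irx3het_Irx4het gave 2 calls of 16286 (0.0123%), Irx3 (-2.21 ± 0.11 SE, adjusted p = 5.33e-07) and Rplp0 (-0.48 ± 0.046, adjusted p = 7.70e-04). Here the loss is that of 1 intact Irx3 copy. Hif3a was at -0.35 ± 0.068 (adjusted p = 0.404), Adgre5 at -0.23 ± 0.055 (0.555), Mt2 at -1.29 ± 0.28 (0.447), Eef2k at -0.24 ± 0.065 (0.626) and Fkbp8 at 0.38 ± 0.096 (0.582). Each of these values had the sign of the pooled comparison and was smaller than in Irx4 mutants. None of these 5 differences between Irx4 states passed its own test (adjusted p = 1), the widest being that of Mt2, -0.94 ± 0.39.

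The difference between the Irx4 states was called for 2 of 16286 genes (0.0123%), Rplp0 and Trib2. Rplp0 encodes a protein of the ribosomal stalk and has processed copies in the genome, so its count is uncertain. It was at 465, 463 and 444 CPM in Irx3KO and 628, 608 and 680 CPM in Irx3het_Irx4het, and at 470, 467 and 486 CPM in Irx3KO_Irx4KO and 441, 426 and 436 CPM in Irx4KO. The Irx3het_Irx4het libraries stood above all the others (difference 0.61 ± 0.065 SE, edgeR adjusted p = 0.00571). In the 6 libraries outside this fit Rplp0 ran far wider, at 1343, 547 and 946 CPM in Irx3KO_Irx4KO 5, 7 and 10 and 75.3, 576 and 563 CPM in WT. Trib2 encodes a Tribbles pseudokinase that directs proteins to degradation. It was at 70.6, 66.8 and 67.2 CPM in Irx3KO_Irx4KO and 80.3, 85.6 and 78.1 CPM in Irx4KO, and at 119, 118 and 123 CPM in Irx3KO and 100, 99.5 and 105 CPM in Irx3het_Irx4het. Each genotype had its own range, and the nulls had the lower values with Irx4 homozygous mutant and the higher values otherwise (difference -0.50 ± 0.063 SE, adjusted p = 0.0225). The Trib2 call held without Irx3KO_Irx4KO 2 or Irx4KO 4 and ended without each of the other 10 libraries, at adjusted p between 0.0549 and 0.139. The Rplp0 call held without each library, at adjusted p up to 0.0396.

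**Figure D4:**
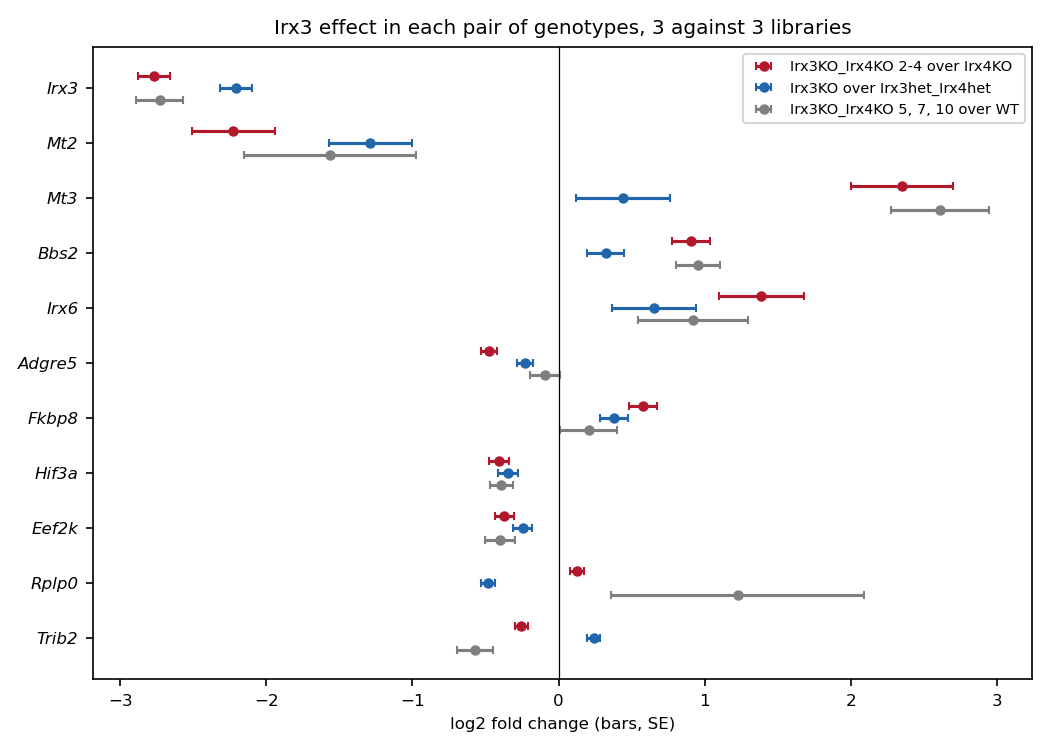
Log2 fold change (x axis, bars are SE) of 11 genes in 3 contrasts of 3 against 3 libraries, Irx3KO_Irx4KO 2 to 4 over Irx4KO (red), Irx3KO over Irx3het_Irx4het (blue) and Irx3KO_Irx4KO 5, 7 and 10 over WT (grey). Hif3a and Eef2k lie between -0.41 and -0.24 in all 3 contrasts, Rplp0 and Trib2 have opposite signs in red and blue, and Mt3 lies nearest to 0 in blue.

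The 6 remaining libraries, Irx3KO_Irx4KO 5, 7 and 10 against WT, measure the loss of Irx3 and Irx4 together. They gave 16 calls of 15759 genes (0.102%), with an unadjusted p under 0.05 for 8.43%. Irx3 fell there (-2.73 ± 0.16 SE, edgeR adjusted p = 7.41e-04). Hif3a was at 120, 127 and 126 CPM in Irx3KO_Irx4KO and 156, 160 and 172 CPM in WT, without overlap (-0.39 ± 0.080 SE, edgeR adjusted p = 0.160). Eef2k was at 31.1, 27.0 and 26.6 CPM in Irx3KO_Irx4KO and 36.8, 35.2 and 39.9 CPM in WT, also without overlap (-0.40 ± 0.10 SE, edgeR adjusted p = 0.251). These sizes were close to the -0.38 and -0.31 of the pooled comparison, and neither passed adjustment over all genes. Mt2 had -1.57 ± 0.59 (adjusted p = 0.554), and its WT libraries ran from 4.42 to 12.2 CPM.

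The other chromosome 8 genes divided in that set. Adgre5 was at 58.0, 52.4 and 53.5 CPM in Irx3KO_Irx4KO and 62.2, 50.3 and 62.2 CPM in WT (-0.09 ± 0.10, adjusted p = 0.882), and Fkbp8 at 193, 112 and 142 CPM in Irx3KO_Irx4KO and 116, 151 and 122 CPM in WT (0.21 ± 0.19, adjusted p = 0.845), so both overlapped. Mt3 rose to 7.91, 7.47 and 5.69 CPM in Irx3KO_Irx4KO, against 1.78, 0.647 and 1.01 CPM in WT (2.61 ± 0.34, adjusted p = 0.0435). That call ended without Irx3KO_Irx4KO 5, 7 or 10 or WT 3, at adjusted p between 0.0728 and 0.170. Bbs2 was at 18.4, 13.5 and 15.7 CPM in Irx3KO_Irx4KO and 8.98, 7.58 and 7.98 CPM in WT, without overlap (0.96 ± 0.15, adjusted p = 0.0733). The Bbs2 levels of WT were near the 7.78, 7.72 and 9.40 CPM of Irx4KO, the other genotype with both copies of Irx3. These libraries were normalised apart from the 12, and other genes differed between WT and Irx4KO. Hif3a was at 156, 160 and 172 CPM in WT, against 221, 244 and 221 CPM in Irx4KO. Levels are therefore not directly comparable between the sets.

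Groups of cardiac genes were next examined in the pooled comparison, as 29 lists holding 472 distinct genes, of which 457 were tested. The 2 lists with a called member were the Iroquois family (Irx3, 1 of 6 tested) and the metallothioneins (Mt2, 1 of 3 tested), and the other 27 had none by edgeR. DESeq2, which called 185 of the 16286 genes fitted, called 23 of the 457 list members tested, 14 higher and 9 lower. These shares were not tested against each other, and the lists were chosen with earlier results of these data known. Of the list members limma-voom called Irx3 alone. The conduction genes, which include genes that Irx3 is known to regulate, had a median log2 fold change of -0.05 over 27 members, against 0.001 over all genes tested. Of them 1 reached an unadjusted p under 0.05 with a higher and 6 with a lower value in the nulls, where the background is 11.6% in both directions. Kcne1, a potassium channel subunit, had -0.25 ± 0.064 SE (edgeR adjusted p = 0.206) and was called by DESeq2. Gja5, the fast-conduction connexin 40, had 0.15 ± 0.083 (adjusted p = 0.508), and Gja1, connexin 43, had 0.06 ± 0.043 (adjusted p = 0.620).

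**Figure D5:**
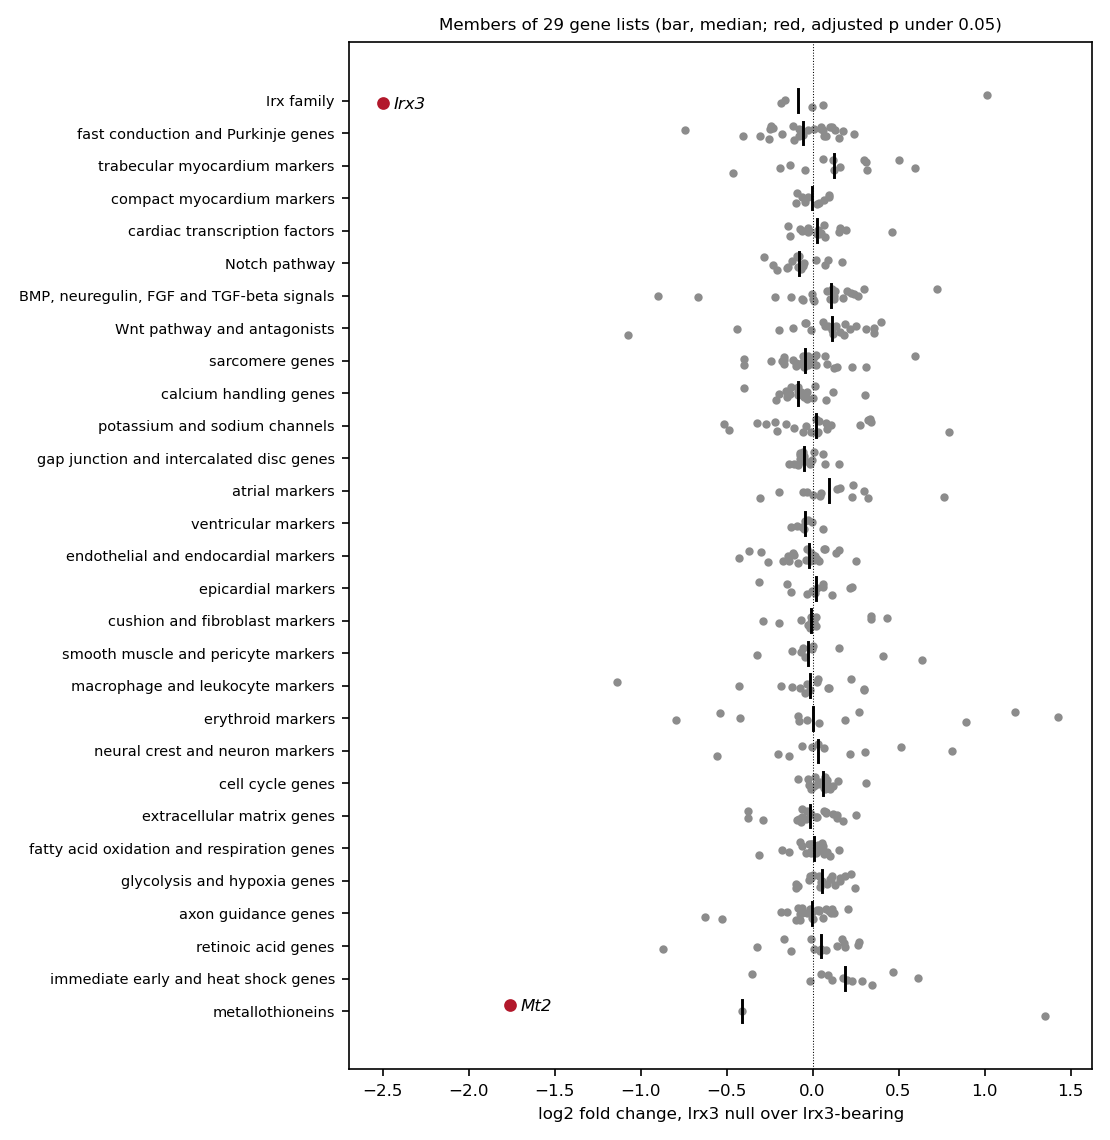
Log2 fold change (Irx3 null over Irx3-bearing, x axis) of the tested members of 29 gene lists (rows), with the list median as a bar and called genes in red. Irx3 and Mt2 are the 2 called members, and the list medians lie between -0.08 and 0.19 except for the metallothioneins at -0.41.

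Genes of the wall layers gave no edgeR call in either layer. The 13 trabecular markers had a median of 0.12, with 5 higher and 2 lower at an unadjusted p under 0.05. The 10 compact markers had a median of -0.002 and none in either direction. Over all genes tested, 11.6% reached that p in both directions together. DESeq2 called 3 of the trabecular markers, 2 higher (Cited1 and Mybphl) and 1 lower (Fhl2), and 0 of the compact markers. By edgeR Fhl2 had -0.19 ± 0.051 SE (adjusted p = 0.221). Mybphl, a myosin-binding protein of the trabeculae and atria, was at 4.47 to 12.1 CPM (median 6.69) in Irx3 null libraries and 3.07 to 5.67 CPM (median 4.46) in Irx3-bearing libraries, with the 3 highest values in Irx3KO_Irx4KO (0.60 ± 0.16 SE, edgeR adjusted p = 0.215). Hey2, a transcriptional repressor on the list of compact markers, had -0.09 ± 0.060 (edgeR adjusted p = 0.604). Of the 18 tested genes on the list of cardiac transcription factors, the smallest p was that of Hand2, a regulator of ventricular growth on chromosome 8, 34.5 Mb from Irx3, at 92.7 to 115 CPM (median 98.9) in Irx3 null and 81.4 to 94.1 CPM (median 88.0) in Irx3-bearing libraries (0.19 ± 0.037, adjusted p = 0.117). Tbx2, which represses chamber myocardium genes, was at 16.6 to 38.3 CPM in Irx3 null and 14.7 to 21.8 CPM in Irx3-bearing libraries, again with the high values in Irx3KO_Irx4KO (0.46 ± 0.12, adjusted p = 0.221).

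The working parts of the myocyte were likewise without edgeR calls. The 33 sarcomere genes tested had a median of -0.05 and the 19 calcium handling genes -0.08, with Casq2, the calcium buffer of the sarcoplasmic reticulum, at -0.40 ± 0.14 SE (edgeR adjusted p = 0.319) and Pln, the inhibitor of its calcium pump, at -0.13 ± 0.048 (0.339). The 14 atrial markers had a median of 0.10, with 4 higher and 0 lower at an unadjusted p under 0.05, including Myl7, a myosin light chain of atria (0.23 ± 0.053, adjusted p = 0.188) and the channel subunit Kcnj3 (0.32 ± 0.074, 0.188). The 8 ventricular markers had a median of -0.05 with 1 lower. For both lists the background is 11.6% of all genes in both directions. The 18 Notch pathway genes had a median of -0.08, and Rbpj, the pathway's DNA-binding factor, had 0.17 ± 0.040 (adjusted p = 0.198). Wnt genes and the BMP, neuregulin, FGF and TGF-beta signals had medians of 0.12 and 0.11.

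Hif3a belongs to the hypoxia pathway, and the 22 glycolysis and hypoxia genes were read beside it. Their median was 0.05, and 8 had an unadjusted p under 0.05, all with higher values in the nulls, against a background of 11.6% of all genes in both directions. The glucose transporter Slc2a1 was at 164 to 186 CPM (median 178) in Irx3 null libraries and 133 to 169 CPM (median 151) in Irx3-bearing libraries (0.23 ± 0.054 SE, edgeR adjusted p = 0.198). The glycolytic enzymes Pfkl and Eno1 had 0.16 ± 0.042 (adjusted p = 0.208) and 0.19 ± 0.054 (0.234). None of the 22 was called by edgeR or limma-voom, while DESeq2 called 2 of them, Slc2a1 and Pfkl. A link between Hif3a and the values of these genes was not tested. Of the other lists, the retinoic acid genes held Cyp26a1, which degrades retinoic acid, at 0.632 to 1.43 CPM in Irx3 null and 0.951 to 2.92 CPM in Irx3-bearing libraries (-0.87 ± 0.20, adjusted p = 0.188).

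The summed levels of all 11 marker sets overlapped between Irx3 null and Irx3-bearing libraries, and 0 markers were called by edgeR or limma-voom and 3 by DESeq2 (Hbb-y, Kcnj3 and Myl7). Endothelial and endocardial markers (8) summed to 1020 to 1203 CPM in Irx3 null and 1081 to 1202 CPM in Irx3-bearing libraries. Of them 0 were higher and 3 lower at an unadjusted p under 0.05, where the background is 11.6% in both directions. Pecam1, an endothelial adhesion molecule, was at 168 to 187 CPM in Irx3 null libraries and 188 to 200 CPM in Irx3-bearing libraries, without overlap (-0.11 ± 0.032 SE, adjusted p = 0.229). In Irx3KO_Irx4KO 5, 7 and 10 against WT its log2 fold change was 0.008 ± 0.099 SE. Of the same 8 markers Cdh5, Kdr, Emcn and Cldn5 also had lower means in the nulls. Tek (155 against 147 CPM), Npr3 (164 against 149 CPM) and Nfatc1 (57.0 against 55.9 CPM) had higher means. Of the embryonic globins, made by primitive red cells, none was called by edgeR, while DESeq2 called Hbb-bh1 and Hbb-y. Hbb-bh1 was at 8.07 to 26.7 CPM (median 14.7) in Irx3 null libraries and 3.34 to 8.48 CPM (median 5.80) in Irx3-bearing libraries (1.43 ± 0.31, adjusted p = 0.198). Hbb-y had 1.18 ± 0.30 (adjusted p = 0.231) and Hba-x 0.89 ± 0.28 (0.292), while the 8 erythroid markers as a set summed to 3987 to 7572 CPM in Irx3 null and 4059 to 8386 CPM in Irx3-bearing libraries. The part of these cells in any other value was not tested.

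Outside the 5 Mb around Irx3, the 5 genes whose level followed Irx3 most closely over the 12 libraries, ranked by Pearson's r of log2 CPM, were Adgre5, Mmaa, Fkbp8 (inversely), Eef2k and Nr2c2. The libraries fall into separate levels of Irx3 by design, so the ranking restates the group differences and no coefficient is given. Mmaa, which encodes a chaperone of a vitamin B12-dependent mitochondrial enzyme, lies on chromosome 8, 12.5 Mb from Irx3, and did not overlap between the groups, but missed the threshold (-0.35 ± 0.059 SE, edgeR adjusted p = 0.0592). Adgre5, Mmaa and Fkbp8 are thus all on chromosome 8, while Eef2k is on chromosome 7 and Nr2c2, an orphan nuclear receptor (-0.10 ± 0.025, adjusted p = 0.198), is on chromosome 6.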

How the data were processed

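Per the labels' protocols, ventricles at embryonic day 14.5 were frozen, RNA with an integrity number above 8.5 was kept, and polyA libraries were made with a directional kit. Per the file headers, the authors deposited kallisto tables of estimated counts and TPM per transcript. Per the submitters' processing notes, kallisto 0.42.2 and mm9 were used; which transcript release and strand option were used is not given in the sources used here. The deposited TPM values served here only to rebuild counts in an alternative.

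Of 88943 transcripts, 78002 (87.7%) were matched by identifier to GENCODE M21 (GRCm38), used for names, chromosomes and distances only. The others held 6.43% to 6.67% of counts. Estimated counts were summed over 28537 genes and rounded. Genes were tested with edgeR 4.0.16 (R 4.3.3; TMM, filterByExpr, robust quasi-likelihood F test, Benjamini-Hochberg threshold 0.05), with Irx4 state and Irx3 null as terms, or 1 term per genotype within Irx4 states. Every adjusted p is over all genes tested. An SE is the absolute log2 effect over the root of F. Levels are TMM-normalised CPM, with error as SD or as each library's value. The smallest chi-square per gene between libraries of a group was 6.31, so none agreed within sampling noise. The script was tested on simulated data. Alternatives used limma 3.58.1 and DESeq2 1.42.0, other filters and terms, and leaving out each library. The named genes are Irx3, Irx4, all called genes with a descriptive symbol, called genes within 5 Mb of Irx3 and up to 3 members of a list by smallest p, plus the 5 genes most like Irx3; Bbs2, Fto, Irx5, Gja5, Gm45062, Rplp0 and Trib2 were named with their values known. A gene that the rule also names is not reported here. The groups, lists and rule were chosen with earlier results of these data known.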

Additional observations from a re-analysis of the deposited data

Results flagged for a closer look

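The contrast of Irx3 null with Irx3-bearing libraries differed between the Irx4 states for Rplp0 and Trib2 by edgeR's test of the difference (adjusted p = 0.00571 and 0.0225). The differences were 0.609 and -0.496 on the log2 scale. The pairs compared also differ in the number of Irx3 copies lost and in an Irx4 copy. Dependence on Irx4 state cannot be told apart from these.

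Among 91 named genes, a single library stood apart from the other 5 of its pooled group by Dixon's test in 15 of 182 groups (8.24%), where chance flags about 5%. In the Irx3 null group, Irx3KO_Irx4KO 3 was high for Jup (173 CPM, others 157 to 161) and Wt1 (27.3 CPM, others 19 to 22) and low for Atf3 (10.9 CPM, others 16.3 to 19). Irx3KO_Irx4KO 4, with low Y-linked signal, was low for Aplnr (26.2 CPM, others 39.6 to 45.2) and high for Tubb3 (4.34 CPM, others 1.24 to 2.21). Irx3KO_Irx4KO 2 was high for Pfkl (328 CPM, others 284 to 297).

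In the Irx3-bearing group, Irx3het_Irx4het 4, the shallowest library, was high for Cited1 (111 CPM, others 72.5 to 85.4), Tcf7 (4.98 CPM, others 3.0 to 3.7), Pecam1 (200 CPM, others 188 to 191), C1qb (7.11 CPM, others 5.70 to 6.10) and Atf3 (16.6 CPM, others 11.6 to 12.8). Irx3het_Irx4het 3 was low for Cthrc1 (7.06 CPM, others 13.2 to 15.8) and Irx3het_Irx4het 2 high for Sema3d (68.9 CPM, others 53.0 to 57.8). Irx4KO 4 was high for Fos (3.55 CPM, others 1.97 to 2.52), and Irx4KO 3 held the only Gm45062 signal of its group (0.0839 CPM, others 0). Of these genes, Gm45062 alone was called by edgeR in the pooled comparison.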

How the results depend on the processing

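The 7 pooled calls became 185 with DESeq2 (86 higher, 99 lower, 20 on chromosome 8, 6 shared with the 7), 3 with limma-voom, 1 with counts rebuilt from TPM, 15 with Irx3 alleles lost as a linear term, 11 with the length trend removed, 11 with all 18 libraries and a set term, and 2 to 33 without 1 library; size factors, other filters, 1 term per genotype, no Irx4 term and a Y-linked covariate gave 6 or 7. With Irx4 homozygous mutant, 4 became 13 without a filter, 7 with only the 6 libraries compared and 1 (without Irx4KO 3) to 43 (without Irx3KO_Irx4KO 3). Otherwise, 2 became 4 with only the 6 libraries and 2 to 4 without 1 library. The difference between Irx4 states kept 1 to 2 calls without 1 library. In double knockout against WT, 16 became 40 without a filter and 2 (without Irx3KO_Irx4KO 10) to 36 (without Irx3KO_Irx4KO 5). Irx3 was called in 25 of 25 alternatives, Hif3a in 24, Adgre5 in 16, Mt2 in 13, Eef2k in 12 and Fkbp8 in 10. With all 18 libraries, Irx4 (0.10) and the lysozyme gene Lyz1 (-0.077) changed sign, and neither was called in any fit of the pooled comparison. The cause of these shifts was not tested.

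Replicate numbers did not pair the libraries: deviations of same-numbered libraries correlated at -0.195 to 0.0907 over 15 pairs, and 2 of 12 libraries correlated best with their own number. With the number as a replicate block, 3 genes were called instead of 7, and 0 instead of 2 for the difference between Irx4 states, where 571 genes had an unadjusted p under 0.05. The depth limits what can be said of genes near 1 CPM, such as Cyp26a1.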
